A study of Homo sapiens with 30 samples.

Results

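KCTD3, LANCL1 and LYRM4 are 3 of the 60617 genes measured here in 2 human colorectal cancer cell lines, HCT116 and SW480. They were chosen from the expression values themselves: in HCT116, the BRD8 siRNA called siBRD8-36 lowered each of them more than 8-fold, and the second BRD8 siRNA, siBRD8-6, did not. Those HCT116 values are therefore given below as a description, without a test, and the tests are on SW480, on the TIP60 siRNAs and on how their effect differed between the lines. In each line, cells received 10 nM of siBRD8-36, siBRD8-6, siTIP60-2, siTIP60-11 or the control siRNA for 48 h, with 3 libraries per group and 30 libraries in all. BRD8 carries a bromodomain and is part of the chromatin complex whose acetyltransferase is TIP60, the product of KAT5. The labels do not say whether replicates came from separate cultures, so p-values measure the spread between these libraries, which may be technical.

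The 3 genes have unrelated roles. KCTD3 belongs to the KCTD family, whose members share a BTB-type domain and in several cases act as adaptors of cullin 3 ubiquitin ligases, and it is known as a partner of the HCN3 channel. LANCL1 is a LanC-like protein that binds glutathione, and in mouse neurons it is known for protection against oxidative stress. LYRM4, also called ISD11, is the LYR motif protein that holds the cysteine desulfurase NFS1 in an active state for iron-sulfur cluster assembly in mitochondria. An siRNA is loaded as a single guide strand, which pairs along its length with the intended mRNA. The seed of a guide, its bases 2 to 8, can also lower mRNAs that match only there, mostly through their 3' UTRs.

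KCTD3 (ENSG00000136636) is a protein-coding gene at chr1:215567392-215621807 on the plus strand of GRCh38, with no overlapping gene in GENCODE release 29. LANCL1 (ENSG00000115365) lies at chr2:210431249-210477652 on the minus strand and overlaps the antisense gene LANCL1-AS1, which had at most 1 count in any library and none in all but 4 of the 30. LYRM4 (ENSG00000214113) lies at chr6:5102593-5260939 on the minus strand and overlaps the miRNA gene MIR3691, listed at 0 in all 30 libraries.

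The siRNA sequences were not used here, so what siBRD8-36 shares with any mRNA was not measured. The sequences shown first are a stretch of the BRD8 mRNA, found from the expression values, and the closest stretches in the 3 mRNAs. Over 15955 words of 7 bases, each present in at least 100 3' UTRs, GTCTTAC was the word whose 3' UTRs went with the lowest change between siBRD8-36 and siBRD8-6 in SW480, with KCTD3, LANCL1, LYRM4 and BRD8 left out of the ranking. The BRD8 mRNA holds this word in its coding sequence, in exon 11 of 27 of transcript ENST00000254900, and all 4 of its transcripts in the basic set of GENCODE have it. The stretch of 19 bases around it, with 11 bases before and 1 base after the word, lies at chr5:138165887-138165905 on the minus strand. The closest window of 19 bases in the transcripts of each of the 3 genes was then found. In the BRD8 line the capitals mark the word, and in the other lines they mark the bases that are identical to BRD8.
BRD8: gatattgctgtGTCTTACa
KCTD3: cATtTTGCTGTGTgTTACA
LANCL1: GgTATTGCTGTGctTTACt
LYRM4: aATAgTGCTGTGTgTTACc
Counted from 1 at the 5' end, with the BRD8 base first, KCTD3 differed by G1C, A4T and C14G. LANCL1 differed by A2G, T13C, C14T and A19T. LYRM4 differed by G1A, T5G, C14G and A19C. The 4 sequences were identical at 12 of the 19 positions, and the longest common run was the 7 bases TGCTGTG from position 6.

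The KCTD3 window, with 3 mismatches, is in the coding sequence, in exon 8 of 18 of ENST00000259154 at chr1:215579980-215579998. The LANCL1 window, with 4 mismatches, is also coding and crosses the junction of exons 2 and 3 of ENST00000443314: its first base is chr2:210471959-210471959 and the other 18 bases are chr2:210455297-210455314. All 5 basic LANCL1 transcripts hold it. The LYRM4 window, with 4 mismatches, is in the 3' UTR of ENST00000330636, in its last exon, the third, at chr6:5109179-5109197. It was present in 3 of the 5 basic LYRM4 transcripts and in 6 of all 9.

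The word GTCTTAC was also present as an exact match in the 3' UTRs of KCTD3 and LANCL1, here shown with the same 11 bases before and 1 base after it and the word in capitals.
KCTD3, 3' UTR: gcctgagacttGTCTTACa
LANCL1, 3' UTR: tttagttaaatGTCTTACt
The KCTD3 site is at chr1:215620985-215621003 and the LANCL1 site at chr2:210432656-210432674. The longest 3' UTR of LYRM4, of 6830 bases, had no such word. The word was present in 7.31% of the 12635 3' UTRs ranked (924 of them).

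The targeted genes were first checked. With siBRD8-36, BRD8 stood at 22.4% of control in SW480 and 14.1% in HCT116, and with siBRD8-6 at 25.3% and 20.8%. KAT5 stood between 7.34% and 14% of control with the TIP60 siRNAs. BRD8 did not differ detectably between both BRD8 siRNAs in SW480 (log2 fold change −0.22, 95% interval −0.45 to 0.01, edgeR quasi-likelihood test, Benjamini-Hochberg adjusted p = 0.107). Libraries held 7.07 to 11.7 M counts in SW480 and 13.4 to 18.6 M counts in HCT116. Of 8 epithelial markers, 7 averaged at least 1 CPM in SW480 and 6 in HCT116. Of 5 leukocyte markers, 1 averaged at least 1 CPM in SW480 and 2 in HCT116, and of 5 fibroblast markers 2 and 1. PTPRC and COL1A2 were at or near 0 in both lines. The leukocyte marker CD68 reached 5.17 CPM in SW480 and 22.7 CPM in HCT116, and LYZ 1.79 and 3.07 CPM. The fibroblast marker COL1A1 reached 10.8 CPM in SW480 and 69.7 CPM in HCT116, and PDGFRB 6.45 and 1.47 CPM. The endothelial marker VWF reached 2.35 and 2.03 CPM.

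In SW480, siBRD8-36 lowered all 3 genes. KCTD3 had 4.99, 4.35 and 4.36 counts per M counts (CPM) with siBRD8-36, 38.7, 39.0 and 37.5 CPM with siBRD8-6, and 32.6, 32.2 and 29.2 CPM with the control siRNA. The siBRD8-36 libraries lay below all 12 others of the line, the lowest of which was 5.85-fold above the highest siBRD8-36 library. KCTD3 fell 7.23-fold against control (log2 fold change −2.85, SE 0.110, edgeR adjusted p = 5.38e-18, n = 3 each). Against siBRD8-6 it fell 8.58-fold (−3.10, SE 0.105, adjusted p = 2.65e-19).

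LANCL1 had 12.4, 17.2 and 10.2 CPM with siBRD8-36 in SW480, 84.6, 97.6 and 90.3 CPM with siBRD8-6, and 63.4, 58.8 and 61.9 CPM with the control siRNA. The groups did not overlap, and the siBRD8-36 libraries were themselves spread over a wider relative range than those of the other groups. LANCL1 fell 4.92-fold against control (−2.30, SE 0.110, adjusted p = 3.93e-15) and 7.06-fold against siBRD8-6 (−2.82, SE 0.105, adjusted p = 2.45e-17).

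LYRM4 had 8.52, 8.48 and 6.08 CPM with siBRD8-36 in SW480, 32.2, 33.3 and 29.2 CPM with siBRD8-6, and 36.1, 35.3 and 35.5 CPM with the control siRNA. It fell 4.90-fold against control (−2.29, SE 0.115, adjusted p = 1.34e-15) and 4.20-fold against siBRD8-6 (−2.07, SE 0.113, adjusted p = 8.66e-15). In bulk RNA, a lower level in every cell and a loss of the RNA from a part of the cells cannot be told apart.

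All 3 genes passed the test downward in both comparisons, where 28.5% of the 15277 genes tested were called lower against control and 27% against siBRD8-6. A fall of more than 4-fold, which each of the 3 showed in both, was less frequent, at 1.11% of genes against control and 1.23% against siBRD8-6. The lowest of the other 12 libraries was at least 2-fold above the highest siBRD8-36 library for 127 of 15277 genes (0.831%), the 3 genes among them. In a ranking of the 9904 genes with at least 10 CPM in control, KCTD3 was the 10th lowest against control, LANCL1 the 44th and LYRM4 the 45th. BRD8, the intended target, was the 51st. On the scale of log2(TPM + 1), which is corrected for transcript length and compresses low values, KCTD3 changed by −1.76 against control, LANCL1 by −2.004 and LYRM4 by −1.61 (limma, all still past the threshold).

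**Figure D1:**
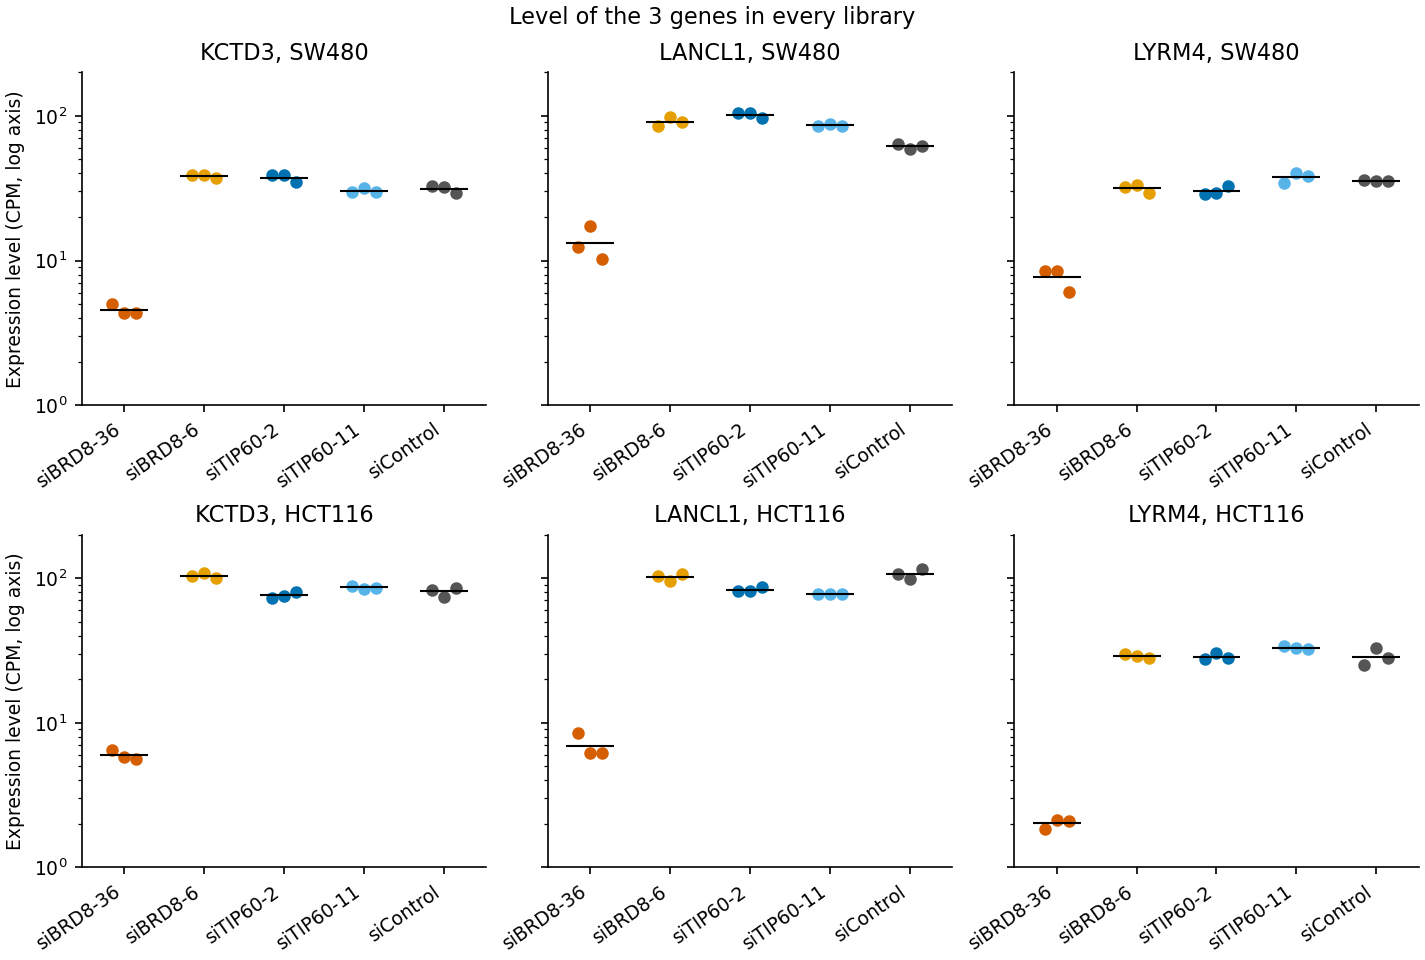
Expression level in CPM (log axis) of KCTD3, LANCL1 and LYRM4 in SW480 (top) and HCT116 (bottom). Points are libraries and lines are means of 3. In each panel the siBRD8-36 libraries lie below all 12 others, in SW480 at 4.35 to 17.2 CPM and in HCT116 at 1.85 to 8.49 CPM.

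In HCT116, from which the genes were chosen, KCTD3 stood at 6.46, 5.81 and 5.60 CPM with siBRD8-36, 103, 108 and 99.6 CPM with siBRD8-6, and 83.4, 73.8 and 85.4 CPM with the control siRNA. LANCL1 stood at 8.49, 6.16 and 6.19 CPM with siBRD8-36, 104, 95.9 and 106 CPM with siBRD8-6, and 106, 98.6 and 115 CPM with the control siRNA. LYRM4 stood at 1.85, 2.12 and 2.10 CPM with siBRD8-36, 29.8, 28.8 and 27.9 CPM with siBRD8-6, and 25.0, 32.7 and 27.9 CPM with the control siRNA. These levels came to 13.5-fold lower for KCTD3, 15.2-fold lower for LANCL1 and 13.9-fold lower for LYRM4 than in control, with expected counts of 85 to 108, 90 to 142 and 31 to 39 in the siBRD8-36 libraries. With siBRD8-6 the log2 fold changes were 0.35, −0.06 and 0.03. In the same contrast 0.327% of 15919 genes were lower by more than 8-fold.

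The wording of the rule was met by more genes than the 3. In HCT116, 47 tested genes were lower by more than 8-fold with siBRD8-36 and not with siBRD8-6. Of these, 16 had at least 10 CPM in control, all of them protein-coding, and for 6 of the 16 the change with siBRD8-6 was within 0.5 of 0 on the log2 scale. These 6 were KCTD3, LANCL1 and LYRM4 together with MCM2, a subunit of the replicative helicase, SNAPIN, a SNARE-associated protein, and TSPYL1, a member of the nucleosome assembly family. Their log2 fold changes with siBRD8-36 were −3.37 for MCM2, −3.35 for SNAPIN and −3.04 for TSPYL1. At the threshold, among genes with at least 10 CPM, NIBAN1 (8.30-fold lower), TSPYL1 (8.25-fold) and SNX10 (8.19-fold) were just inside. FCF1 (7.13-fold lower), ENPP5 (7.08-fold) and BRD8 itself (7.04-fold) were just outside.

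With siBRD8-6 in SW480, KCTD3 and LANCL1 rose and LYRM4 was near its control level. LANCL1 rose 1.44-fold (0.52, SE 0.0882, adjusted p = 2.19e-05), with the libraries of both groups apart. KCTD3 rose 1.19-fold (0.25, SE 0.0799, adjusted p = 0.0113), a call lost without control replicate 3 (0.20, adjusted p = 0.0745). LYRM4 passed the test narrowly (−0.22, SE 0.0932, adjusted p = 0.0468) and no longer with DESeq2 (adjusted p = 0.103) or without any 1 of the 3 control libraries, siBRD8-6 replicate 1 or siBRD8-6 replicate 3 (adjusted p between 0.0605 and 0.205). Of all genes tested, 25.7% were called higher and 26.3% lower in this comparison.

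With the TIP60 siRNAs, LANCL1 rose in SW480 and fell in HCT116, and KCTD3 and LYRM4 changed by at most 0.26 on the log2 scale. In SW480, LANCL1 had 104, 104 and 96.5 CPM with siTIP60-2, 84.6, 87.7 and 85.4 CPM with siTIP60-11, and 63.4, 58.8 and 61.9 CPM with the control siRNA. All 6 depleted libraries lay above the controls. It rose 1.62-fold with siTIP60-2 (0.70, SE 0.0879, adjusted p = 4.26e-07) and 1.36-fold with siTIP60-11 (0.45, SE 0.0884, adjusted p = 0.000166). In HCT116 it had 80.8, 81.7 and 86.1 CPM with siTIP60-2, 77.3, 77.8 and 77.9 CPM with siTIP60-11, and 106, 98.6 and 115 CPM with the control siRNA. Here all 6 depleted libraries lay below the controls, and it fell with siTIP60-2 (−0.36, SE 0.0721, adjusted p = 0.000372) and with siTIP60-11 (−0.45, SE 0.0726, adjusted p = 3.80e-05). The change in SW480 minus that in HCT116 was 1.09 for siTIP60-2 (SE 0.118, adjusted p = 1.09e-08) and 0.94 for siTIP60-11 (SE 0.118, adjusted p = 1.42e-07), in a fit of all 30 libraries. Among all genes, 29.4% and 28.4% were called for these line differences. The HCT116 comparisons, and so these line differences, share their control libraries with the contrast the genes were chosen from.

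KCTD3 and LYRM4 varied less. With siTIP60-2 in SW480, KCTD3 was at 37.5 ± 2.43 CPM against 31.3 ± 1.87 CPM in control (SD, n = 3 each; 0.23, edgeR adjusted p = 0.0212) and LYRM4 at 30.3 ± 1.97 CPM against 35.6 ± 0.455 CPM in control (−0.26, edgeR adjusted p = 0.0213). Both calls were lost when single libraries were left out: that of KCTD3 without control replicate 3 (adjusted p = 0.118) or siTIP60-2 replicate 1 (0.0870) or 2 (0.0712), and that of LYRM4 without control replicate 1 (0.0653) or siTIP60-2 replicate 1 (0.0773) or 2 (0.0711). With siTIP60-11 in SW480 neither passed (KCTD3 −0.09, 95% interval −0.25 to 0.08; LYRM4 0.05, −0.14 to 0.23). In HCT116, KCTD3 passed with neither siTIP60-2 (−0.09, −0.21 to 0.04) nor siTIP60-11 (0.11, −0.02 to 0.23), except that it was called with siTIP60-2 without control replicate 2 (−0.15, adjusted p = 0.0302). LYRM4 did not pass with siTIP60-2 (0.01, −0.16 to 0.18) and rose with siTIP60-11 (0.23, SE 0.0803, adjusted p = 0.0210), a call lost without control replicate 1 (adjusted p = 0.147) or siTIP60-11 replicate 1 (0.0715). Among all genes, 49.5% and 47.6% were called with siTIP60-2 and siTIP60-11 in SW480, and 49.8% and 53.6% in HCT116.

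**Figure D2:**
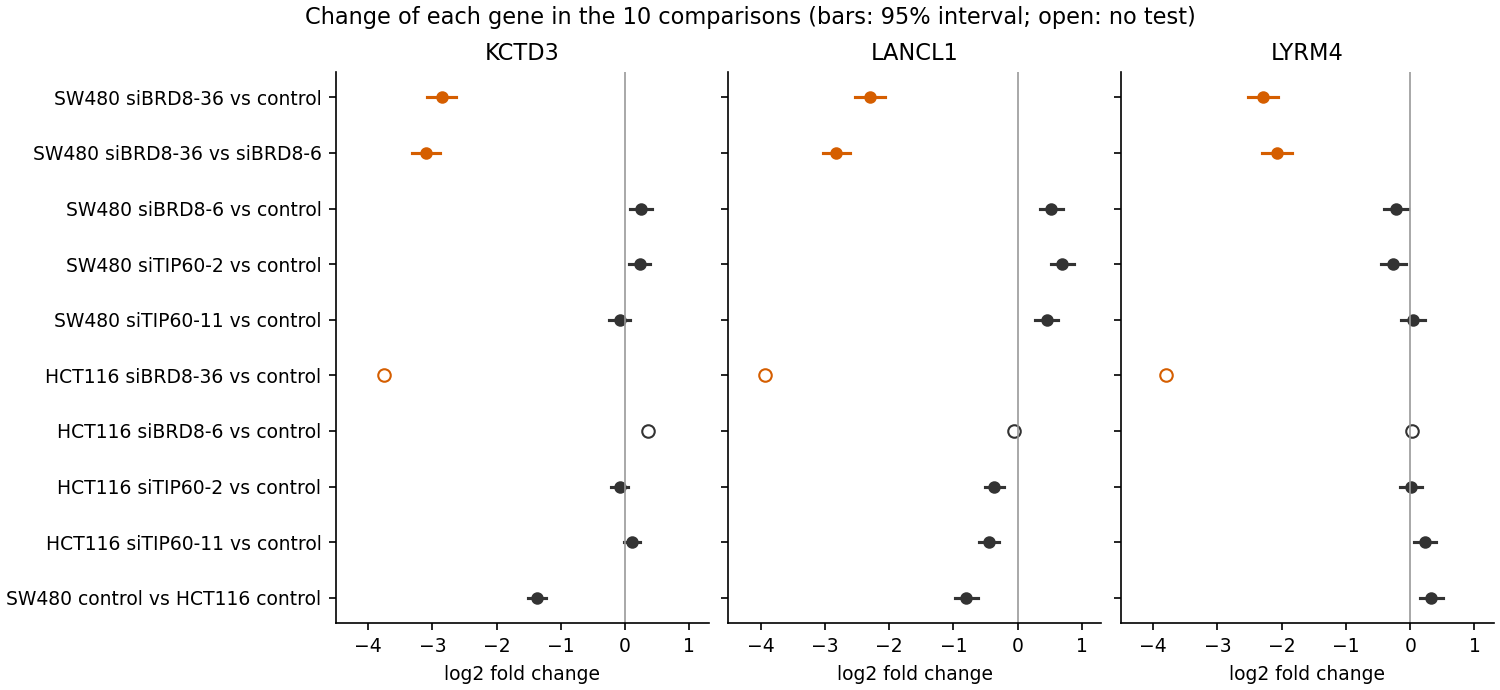
Log2 fold change of KCTD3, LANCL1 and LYRM4 in the comparisons of the study, each named as the first group over the second. Bars are 95% intervals and open points are the HCT116 contrasts from which the genes were chosen. The siBRD8-36 values lie between −2.07 and −3.93 and no other siRNA's value lies below −0.45.

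The levels of the 3 genes in the control libraries of the lines are given as a description, since the genes were chosen with the HCT116 control libraries. KCTD3 stood at 31.3 ± 1.87 CPM in SW480 control libraries and 80.9 ± 6.20 CPM in HCT116 control libraries (log2 difference −1.37). LANCL1 stood at 61.4 ± 2.34 CPM in SW480 and 107 ± 8.31 CPM in HCT116 (−0.80). LYRM4 was higher in SW480, at 35.6 ± 0.455 CPM against 28.5 ± 3.87 CPM in HCT116 (0.33). Of 17411 genes, 78.5% were called between the lines. Per length, the order of the genes differed from that by CPM in SW480 control libraries. There LYRM4 was the highest of the 3 (44.5 ± 1.25 TPM, against 23.6 ± 0.301 for LANCL1 and 9.66 ± 0.822 for KCTD3). In HCT116 control libraries the order was the same on both scales, with LANCL1 the highest (47.1 ± 7.42 TPM, against 31.1 ± 5.39 for KCTD3 and 30.5 ± 2.13 for LYRM4).

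Across the 5 groups of a line, siBRD8-36 was lowest for each gene and did not overlap the next group. Above it, the order of SW480 levels for KCTD3 was siTIP60-11, control, siTIP60-2 and siBRD8-6, with overlap between the first pair and between the last pair. For LYRM4 in HCT116, control, siTIP60-2 and siBRD8-6 overlapped (28.5 to 28.8 CPM on average), and siTIP60-11 had the highest mean, at 33 CPM. The highest control library, at 32.7 CPM, lay within the siTIP60-11 range of 32.5 to 33.9 CPM.

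The change across genes was then set against closeness to the BRD8 stretch. Of 12902 protein-coding genes tested in SW480, 132 (1.02%) had a window with at most 4 mismatches: BRD8 with 0, 2 genes with 2, 15 with 3 and 114 with 4. When these 132 were ordered by the change between siBRD8-36 and siBRD8-6, KCTD3 was the lowest, LANCL1 the second and LYRM4 the fourth. The third was BORA, an activator of the mitotic kinase Aurora A, at −2.24. Most of the others changed less. KCTD3, LANCL1 and LYRM4 were chosen for a fall with siBRD8-36 and not with siBRD8-6 in HCT116, so their low places go with that choice. The stretch was also built from a word picked in this same comparison. The order is therefore a description and supports nothing. Of the 128 genes other than BRD8 and the 3, 16 were lower by more than 2-fold, 59 were called lower and 20 were called higher, VDAC1 with 2.00 being the highest. Among all 15277 genes tested, protein-coding or not, 27% were called lower and 25.9% higher. After BRD8, the 2 genes closest to the stretch, with 2 mismatches each, were ITCH, a ubiquitin ligase (−0.79), and FRMD4B (−0.65). With BRD8 and the 3 genes left out, the share lower by more than 2-fold was 14.3% at 3 mismatches (of only 14 genes), 12.5% at 4 and 5.94% at 7. The median change was −0.20 at 3 mismatches and −0.21 at 4, and it was −0.10 at 5, −0.04 at 6, 0.01 at 7 and 0.07 at 8. A long transcript offers more windows, so closeness also follows transcript length. Between siBRD8-6 and control in SW480 the medians were −0.04 at 3 mismatches, 0.08 at 4 and 0.01 at 8. The share lower by more than 2-fold was also higher at closer windows there, at 7.14% at 3, 4.46% at 4 and 3.5% at 7. In HCT116 the siBRD8-6 shares were 15.4%, 8.55% and 4.56%. With siTIP60-11 in SW480 they were 7.14%, 4.46% and 3.10%, and with siTIP60-2 they were 0%, 0% and 1.89%. The shares with siBRD8-36 against control were 21.4%, 11.6% and 6.05% in SW480 and 38.5%, 16.2% and 7.62% in HCT116. The SW480 siBRD8-36 libraries are also among those that picked the word. All shares at 3 mismatches rest on 14 genes in SW480 and 13 in HCT116.

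**Figure D3:**
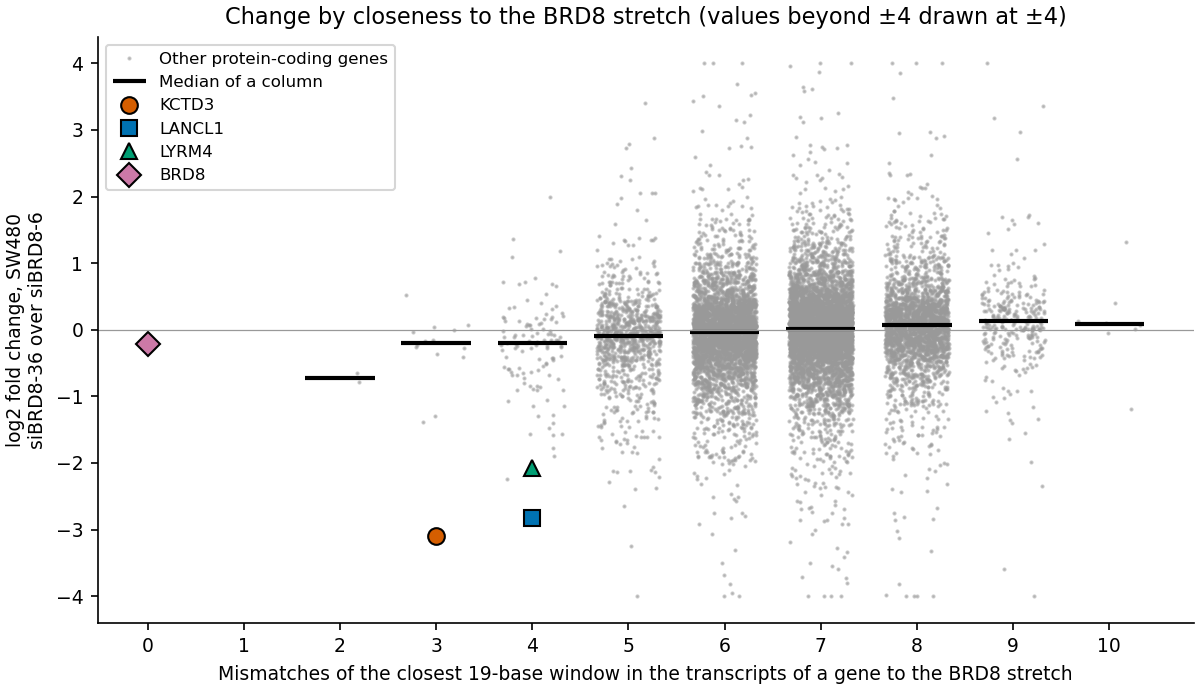
Log2 fold change of siBRD8-36 over siBRD8-6 in SW480 (vertical axis) by the number of mismatches between the closest window in the transcripts of a gene and the BRD8 stretch of 19 bases (horizontal axis). Grey points are genes, drawn at ±4 where they lie beyond it, and black lines are medians. KCTD3 at 3 mismatches and LANCL1 and LYRM4 at 4 lie at −3.10, −2.82 and −2.07, and most genes of the same columns lie between −1 and 1. The 3 genes were chosen for such a fall in HCT116.

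The word GTCTTAC was itself picked as the lowest-ranked word of this comparison, and the BRD8 stretch was built around it, so its values there describe that choice and support nothing. Genes with it in the 3' UTR averaged −0.46 between siBRD8-36 and siBRD8-6 in SW480 and those without it 0.01, a difference of −0.42 after adjustment for 3' UTR length. The next lowest word, TCTTACA, which overlaps it by 6 bases, had −0.24. In HCT116 siBRD8-36 libraries against control, GTCTTAC again ranked first, at −0.42. It ranked 4195th of 15955 words for siBRD8-6 against control in SW480 (−0.03), 5161st for siTIP60-2 and 5907th for siTIP60-11. KCTD3 and LANCL1 therefore have both a close window and the 3' UTR word, and LYRM4 has the close window alone. MCM2, SNAPIN and TSPYL1, the other genes of the 6, all have the word in the 3' UTR, and their closest windows had 8, 7 and 7 mismatches. They were not left out of the ranking that picked the word, and they were listed for their fall with siBRD8-36. That they have the word therefore supports nothing. An exact match shared with BRD8 did not mark the 3 genes: the longest was 12 bases for KCTD3, 13 for LANCL1 and 12 for LYRM4, and 81.5% of tested genes shared at least 12 bases with BRD8 and 46.2% at least 13. Whether siBRD8-36 acted on these sequences was not tested.

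The mean transcript length that accompanies each gene's count is an average over its transcripts, weighted by their estimated share. The lengths in siBRD8-36 and control libraries did not overlap for LYRM4 in SW480, for LANCL1 in HCT116 and for BRD8 in both lines. For LYRM4 the length was 763, 841 and 793 bases in SW480 siBRD8-36 libraries and 1000, 977 and 1019 bases in SW480 control libraries. The groups did not overlap (difference −199 bases, exact permutation test, two-sided p = 0.1, the smallest that 3 against 3 allows). In HCT116 the lengths were 1303 ± 235 bases with siBRD8-36 and 1387 ± 62.3 bases in control, with overlap. KCTD3 had 3078 ± 956 bases with siBRD8-36 in SW480 and 3875 ± 250 bases in control (SD, n = 3 each, exact permutation test, p = 0.2), the low value resting on 1 library at 1996 bases. LANCL1 had 3500 ± 311 bases with siBRD8-36 and 3120 ± 219 bases in control (SD, n = 3 each, exact permutation test, p = 0.3). In HCT116 the LANCL1 lengths did not overlap, at 2889 ± 386 bases with siBRD8-36 and 3311 ± 18.9 bases in control. BRD8 had 1367 ± 156 bases with siBRD8-36 in SW480 and 1834 ± 195 bases in control (SD, n = 3 each, exact permutation test, p = 0.1). In HCT116 BRD8 had 1437 ± 197 bases with siBRD8-36 and 1841 ± 66.9 bases in control. The shares behind these lengths rest on few reads, since the siBRD8-36 libraries of SW480 held 60 to 87 counts of LYRM4 and 39 to 51 of KCTD3.

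**Figure D4:**
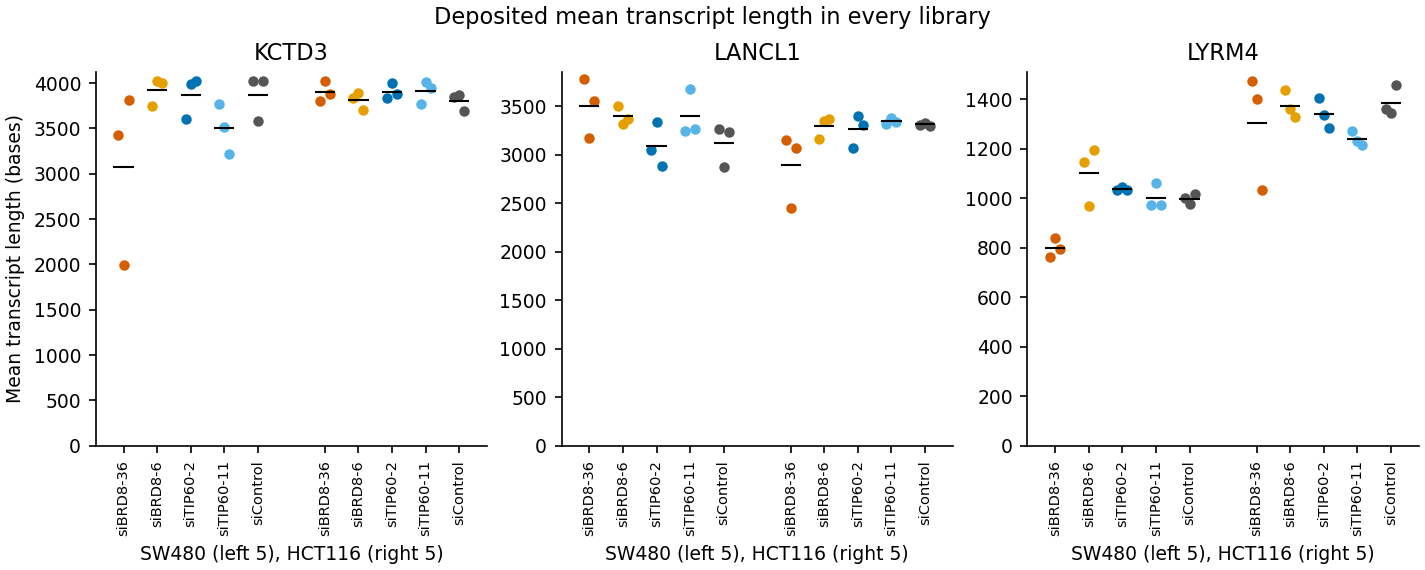
Mean transcript length in bases, as deposited, of KCTD3, LANCL1 and LYRM4 in each library, by siRNA and line. Points are libraries and lines are means of 3. For LYRM4 in SW480 the siBRD8-36 libraries lie at 763 to 841 bases and the control libraries at 977 to 1019 bases.

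Most genes in the lists of pathways and families that the 3 belong to changed less than the 3 did. Of 16 genes of mitochondrial iron-sulfur cluster assembly, where LYRM4 acts, 7 fell and 1 rose with siBRD8-36 against control in SW480 (median −0.09, against 0.01 over all genes). NFS1, the desulfurase that LYRM4 binds, rose (0.55, SE 0.0836, adjusted p = 2.70e-06). NFU1, a late-acting cluster carrier, fell (−0.49, adjusted p = 9.09e-06), as did HSPA9, the mitochondrial chaperone (−0.47, adjusted p = 6.83e-09), and NDUFAB1, the acyl carrier protein that binds LYR proteins (−0.43, adjusted p = 0.000892). With siBRD8-6 in SW480, 6 of the 16 fell and none rose (median −0.16), among them NFU1 (−0.32), HSPA9 (−0.38) and NDUFAB1 (−0.44). With siBRD8-36 in HCT116, 9 of the 16 were called higher and 2 lower (median 0.27), where 28.8% of all genes were called higher and 29.4% lower. NFS1 was at 0.99 there, HSPA9 at −0.45, NFU1 at −0.23 and NDUFAB1 at 0.17. In the LYR motif family, 3 of 10 genes fell and 1 rose (median −0.11). LYRM2, a mitochondrial LYR protein, fell most (−1.96, SE 0.0886, adjusted p = 1.53e-16). Between siBRD8-36 and siBRD8-6 it fell by 1.72 (adjusted p = 1.78e-15), and its closest window had 6 mismatches. LYRM2 was at −1.82 with siBRD8-36 in HCT116, where 4 of the 10 genes were called higher and 2 lower. FMC1, an assembly factor of the ATP synthase (−0.46, adjusted p = 0.0151), and NDUFB9, a complex I subunit (−0.40, adjusted p = 0.000787), fell less, and LYRM9 rose (0.87, adjusted p = 0.000753).

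Of 18 tested genes in the list of the KCTD family, 7 rose and 5 fell with siBRD8-36 in SW480 (median −0.09). KCTD2 rose most (1.13, SE 0.0987, adjusted p = 1.60e-10), and KCTD21 rose as well (0.65, adjusted p = 4.66e-05). KCTD20 fell (−0.65, adjusted p = 1.51e-09), as did KCTD5 (−0.63, adjusted p = 8.64e-07). With siBRD8-36 in HCT116, 8 of 21 were called higher and 9 lower. CUL3, the cullin of the ligases that KCTD proteins can join, was at −0.14 (adjusted p = 0.0588). Of 13 tested genes in the list of LanC-like proteins and glutathione, 7 fell and 2 rose (median −0.20). With siBRD8-36 in HCT116, 3 of 14 were called higher and 5 lower. The list members CHAC1 (−4.19) and SLC7A11 (−3.29) were far below control there, beside −3.93 for LANCL1. CHAC1 was at −0.08 with siBRD8-36 in SW480. Under siBRD8-6 in HCT116, CHAC1 was at −0.60, SLC7A11 at −1.04 and LANCL1 at −0.06. With siBRD8-6, 3 of 13 genes of the list were called higher and 4 lower in SW480. In HCT116, 0 of 14 were called higher and 10 lower with siBRD8-6, where 25.7% of all genes were called lower. With siBRD8-36 in SW480, LANCL2, the closest relative of LANCL1 in the list, was at 0.03 (adjusted p = 0.754). SLC7A11, the cystine transporter that feeds glutathione synthesis, fell (−1.08, adjusted p = 4.92e-10), as did GCLM, a subunit of the first enzyme of that synthesis (−0.72, adjusted p = 2.80e-09), and GSTO1, a glutathione transferase (−0.56, adjusted p = 1.53e-07). MGST1, a microsomal glutathione transferase, rose (0.69, adjusted p = 8.12e-05). Among all genes, 28.3% rose and 28.5% fell in this comparison, and in these small lists the counts were read against those shares only.

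**Figure D5:**
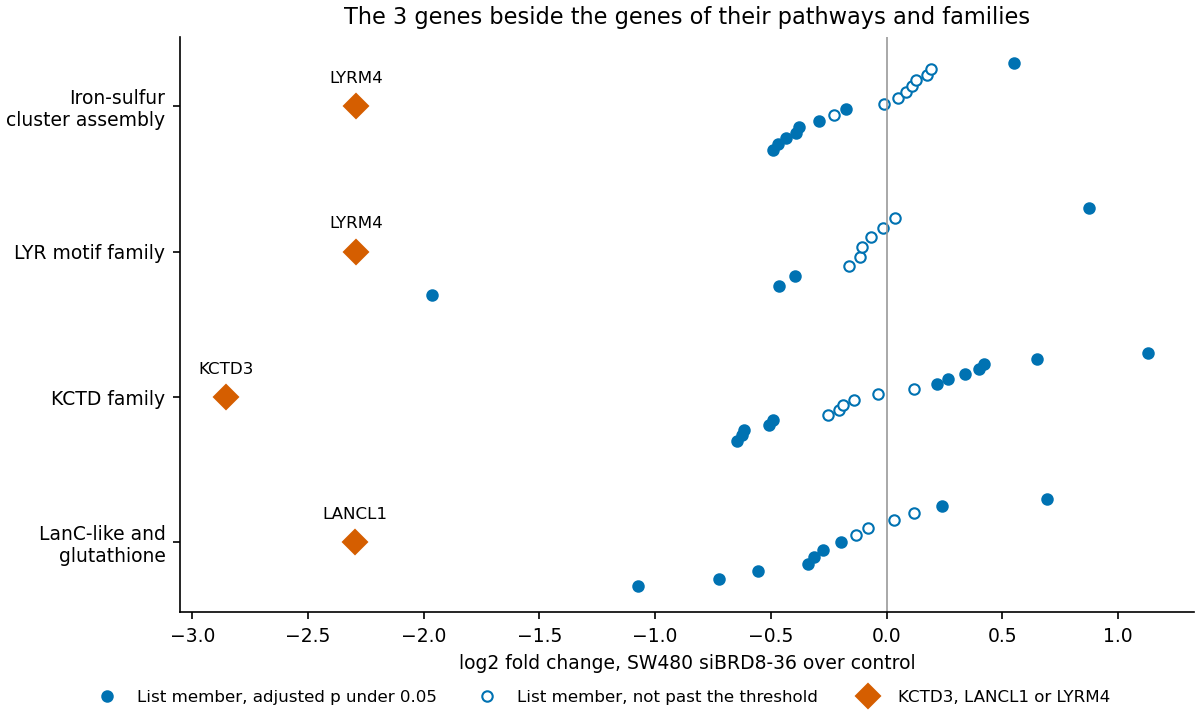
Log2 fold change of siBRD8-36 over control in SW480 for the genes of the 4 lists (circles, filled where the adjusted p is under 0.05) beside LYRM4, KCTD3 and LANCL1 (diamonds). The 3 genes lie at −2.29, −2.85 and −2.30, LYRM2 lies at −1.96, and SLC7A11, at −1.08, is the next lowest list member.

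By Pearson correlation of log2 CPM over the 30 libraries, centred within each line, the genes most like the 3 were all lower with siBRD8-36 in both lines. For KCTD3 they were TSPYL1 (r = 0.989), LANCL1 (0.986), ALDH9A1, an aldehyde dehydrogenase (0.984), MICB, a ligand of an NK cell receptor (0.979), and RTN3, a reticulon (0.977), out of 12084 genes. For LANCL1 they were ALDH9A1 (0.986), KCTD3 (0.986), TSPYL1 (0.981), MICB (0.975) and SLC7A5, an amino acid transporter (0.974). For LYRM4 they were KCTD3 (0.974), MYL12B, a myosin light chain (0.971), MCM2 (0.970), XRCC6, the Ku70 subunit (0.968), and SNAPIN (0.968). All genes share the same 30 libraries, the 6 siBRD8-36 libraries among them, so these values describe the profiles only.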

How the data were processed

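RNA-seq of 30 libraries (10 groups of 3) was analysed. The submitters' processing notes name hg38, RSEM 1.3.3, STAR 2.7.3a and Trimmomatic 0.33. For the annotation, the release is not given in the sources used here. Per gene and library, the authors deposited an expected count (an estimate that need not be whole), a TPM value and a mean transcript length, per the file headers. Expected counts were rounded. Each line was fitted with its 15 libraries by the edgeR 4.0.16 quasi-likelihood test (R 4.3.3, TMM, robust, its expression filter), with Benjamini-Hochberg adjustment over all genes tested and a threshold of 0.05; line differences used all 30 libraries. CPM values carry TMM scaling over all 30. Standard errors came from the F statistic (the size of the log2 change over √F). The scripts were tested on simulated data.

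Replicate pairs differed beyond sampling noise (chi-square per gene 1.47 to 21.3 over 30 pairs, genes with at least 20 counts), so each library counted once. Of the gene identifiers, 58444 were found in GENCODE release 29 (GRCh38), the source of coordinates and sequences. The files may use a later release. Mismatches were counted over its basic transcripts, and 3' UTRs are those of the coding transcript with the longest one, at least 50 bases. The members and lists were chosen with earlier results of these data known. Named were the members, the siRNA targets, per list up to 4 called genes with the largest change and any changed 2-fold, 3 genes on each side of the 8-fold threshold, the 5 lowest genes in SW480 and the 5 most similar profiles per member. The sequence windows, the word ranking and the line difference were chosen after the data were seen. Alternatives used DESeq2 1.42.0, limma 3.58.1 and further settings. Replicate numbers did not pair the libraries.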

Additional observations from a re-analysis of the deposited data

Results flagged for a closer look

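LANCL1 responded to TIP60 depletion differently in the lines by the interaction term of the fit of all 30 libraries: its change in SW480 minus that in HCT116 came to 1.09 for siTIP60-2 (edgeR adjusted p = 1.09e-08) and to 0.94 for siTIP60-11 (edgeR adjusted p = 1.42e-07), with all 3 libraries of each siRNA above control in SW480 and below control in HCT116. The KCTD3 change with siTIP60-2 also differed between the lines, by 0.35 (adjusted p = 0.00555), with values of 0.23 in SW480 and −0.09 in HCT116. That call was lost without SW480 control replicate 3 (0.21, adjusted p = 0.132) and with no filter on low counts (0.285, adjusted p = 0.0795). Among all genes, 29.4% were called in the line difference for siTIP60-2 and 28.4% for siTIP60-11. The SW480 control libraries were the shallowest of the series, and the part of depth in the differences was not tested.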

How the results depend on the processing

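The fall of KCTD3, LANCL1 and LYRM4 with siBRD8-36 in SW480, against control and against siBRD8-6, kept its direction and stayed past the threshold in all 90 recomputed values, 36 of them with a library left out, and the 149 recomputed counts of called genes stayed within 1.5 times. Under the replicate block LYRM4 with siBRD8-6 in SW480 was at −0.22 (adjusted p = 0.0592), and no other call changed under the block; same-numbered libraries correlated between −0.158 and 0.175 in their deviations. LYRM4 with siBRD8-6 also missed the threshold with all 30 libraries in 1 fit (−0.18), DESeq2 (−0.22), log2(TPM + 0.1) (−0.0754), log2(TPM + 1) (−0.0736) and no filter (−0.21), and lay between −0.27 and −0.16 with a library left out. With limma, LYRM4 with siTIP60-2 in SW480 was at −0.0337 on log2(TPM + 0.1) and −0.0330 on log2(TPM + 1), and between −0.33 and −0.23 with a library left out. KCTD3 with siTIP60-2 in SW480 missed the threshold with DESeq2 (0.22) and with a library left out (0.18 to 0.28), and KCTD3 with siTIP60-11 turned to 0.20 with log2(TPM + 0.1) and 0.18 with log2(TPM + 1). With a library left out, KCTD3 with siBRD8-6 lay between 0.20 and 0.29, and KCTD3 with siTIP60-2 in HCT116 between −0.15 and −0.0399. LANCL1 with siTIP60-2 in HCT116 missed the threshold with log2(TPM + 0.1) (−0.31). LYRM4 with siTIP60-11 in HCT116 did so with only 2 groups in the fit (0.24) and lay between 0.14 and 0.33 with a library left out. LYRM4 with siTIP60-2 in HCT116 ranged from −0.0695 to 0.12 with a library left out, and with siTIP60-11 in SW480 from −0.00619 to 0.11. The line difference of KCTD3 with siTIP60-11 turned to 0.16 with log2(TPM + 1) and lay between −0.27 and −0.0823 with a library left out, called at −0.27 without SW480 control replicate 3 (adjusted p = 0.0494). With siTIP60-2 the line difference of KCTD3 was 0.285 with no filter and lay between 0.21 and 0.41 with a library left out, and that of LYRM4 lay between −0.35 and −0.18, called at −0.35 without HCT116 control replicate 2 (adjusted p = 0.0203). With 3' UTRs only, the longest stretch shared with BRD8 was 9 bases for KCTD3, 12 for LANCL1 and 11 for LYRM4. With the BRD8 window at 21 bases the mismatches were 5 for KCTD3, 6 for LANCL1 and 5 for LYRM4, and with it moved by 1 base they were 4, 4 and 3, both chosen after seeing the data. At 21 bases, 137 other protein-coding genes tested in SW480 had 5 mismatches and 902 had 6. With the moved window, 14 others had 3 and 113 had 4, and with the main window 14 had 3 and 112 had 4. The closeness of KCTD3 and LANCL1 was thus less rare at 21 bases, and that of KCTD3 also with the moved window. That of LYRM4 changed less at 21 bases and was rarer with the moved window. The causes were not tested. Few counts (31 to 39 of LYRM4 in HCT116 siBRD8-36 libraries) limit the precision of the lowest levels.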

Other observations

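The 5 lowest genes with siBRD8-36 in SW480 by fitted change had no counts in the 3 siBRD8-36 libraries: RMRP (283 counts over the 3 control libraries), AC120057.2 (66), AC000120.4 (39), RPL21P75 (39) and AD000671.1 (27). RMRP is the RNA of a mitochondrial and nucleolar ribonuclease. Of the 5, RPL21P75, a pseudogene, passed the edgeR test (adjusted p = 0.00309), and RMRP did not (adjusted p = 0.183). Among genes with at least 10 CPM in control, GPR1 (−3.57), MZT1, a component of the microtubule-nucleating ring complex (−3.36), and THAP10 (−3.17) were next after RMRP. SNAPIN was at −2.96 and at −0.09 with siBRD8-6. RMRP (−3.37), GPR1 (−0.92), MZT1 (−0.90) and THAP10 (−2.05) were lower with siBRD8-6 as well.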
